A study of Homo sapiens with 16 samples.

Results

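The genes described here are 9 transcripts that are commonly followed when cells enter senescence, a lasting exit from the cell cycle. They comprise 3 nuclear genes, LMNB1, HMGB1 and HMGB2, and 6 genes of secreted or surface proteolysis and growth factor binding, PLAU, PLAUR, TIMP1, TIMP2, IGFBP3 and IGFBP6. The rule was a list of symbols, matched to the Ensembl identifiers of the count files, and each of the 9 matched 1 of 54127 identifiers. RNA was sequenced from 2 established colorectal cancer cell lines, HT55 and SW948, grown adherent in serum and given either itraconazole, an azole antifungal, at 5 µM or its solvent DMSO until day 6. The 4 groups, HT55 and SW948 with DMSO or itraconazole, held 4 libraries each, which the study's methods call biological replicates. The labels do not say that they came from separate cultures, so p-values measure the spread between these libraries. Each line is 1 established culture, so the libraries are replicates of that line and not of patients.

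Lamin B1, the product of LMNB1, lines the inner nuclear membrane, and its loss is a widely used mark of senescent cells. HMGB1 and HMGB2 bend DNA in chromatin, and senescent cells are known to lower HMGB2 and to release HMGB1 from the nucleus. Senescent cells also secrete proteases, their inhibitors and binding proteins of insulin-like growth factors, together called the senescence-associated secretory phenotype. PLAU (urokinase) activates plasminogen when bound to its receptor PLAUR, TIMP1 and TIMP2 block matrix metalloproteinases, and IGFBP3 and IGFBP6 bind insulin-like growth factors outside the cell.

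Gene counts per library ran from 8269406 to 11110814. Levels are given in CPM, counts per 1000000 gene counts after one TMM scaling of all 16 libraries, and levels of different genes are compared only as CPM per kilobase of merged exons. All 10 colon epithelium markers listed were expressed in every group, with a summed level of 6443 CPM or more. Fibroblast markers summed to between 1.41 and 12.1 CPM, and COL3A1 and THY1 had no count in any library. Of the endothelial and leukocyte markers, KDR, CD3E and MS4A1 had no count, and PTPRC had a mean of 0.0257 CPM in HT55 DMSO and no count elsewhere. CD14, VWF and CDH5 had means of 0.408 CPM or less in every group. CD68 and LYZ were expressed, with highest group means of 110.3 CPM in treated SW948 and 317.9 CPM in SW948 DMSO. On the axis from the DMSO mean (0%) to the itraconazole mean (100%) of all genes tested in a line, replicate 3 of treated HT55 lay at 76.1%, against 97.4% to 116.1% for the other 3. Treated SW948 libraries lay between 88.7% and 108.0%. In bulk RNA, fewer cells of a kind and less RNA per cell cannot be told apart.

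Scaling bears on the members with small changes. TMM raised the median log2 ratio of treated to control (the log2 fold change) over all genes tested, relative to plain library totals, by 0.17 in HT55 and 0.33 in SW948. With plain totals the split of calls moved from 3340 higher and 3213 lower to 2279 and 4710 in HT55, and from 4865 and 5165 to 3145 and 6832 in SW948. Each member whose direction turned with the scaling is named where it is described.

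The first comparison asked how the 9 genes respond to itraconazole in each line. In HT55, 7 of the 9 passed the filter on low counts and 6 of these passed edgeR's quasi-likelihood test (adjusted p under 0.05), 3 upwards (PLAU, PLAUR and TIMP2) and 3 downwards (LMNB1, HMGB1 and HMGB2). Over all 12133 genes tested in HT55, 54.0% changed, with 27.5% higher and 26.5% lower. In SW948 all 9 were tested and 8 changed, 6 upwards (the same 3 with TIMP1, IGFBP3 and IGFBP6) and 2 downwards (HMGB1 and HMGB2). There 80.2% of the 12505 genes tested changed, 38.9% higher and 41.3% lower, so a call in SW948 sets a gene apart less than its size does. Treated and control libraries did not overlap for 6 of the 7 members tested in HT55 and for 8 of 9 in SW948, where 49.4% and 74.7% of all genes tested did not overlap. The filter asked for about 10 counts in 4 libraries, and PLAU in both lines and IGFBP6 in SW948 passed it only with the help of their treated libraries. DMSO libraries reached that limit in 0 of 4 for PLAU in HT55, 3 of 4 for PLAU in SW948 and 1 of 4 for IGFBP6 in SW948, so these 3 calls support nothing beyond the values.

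**Figure D1:**
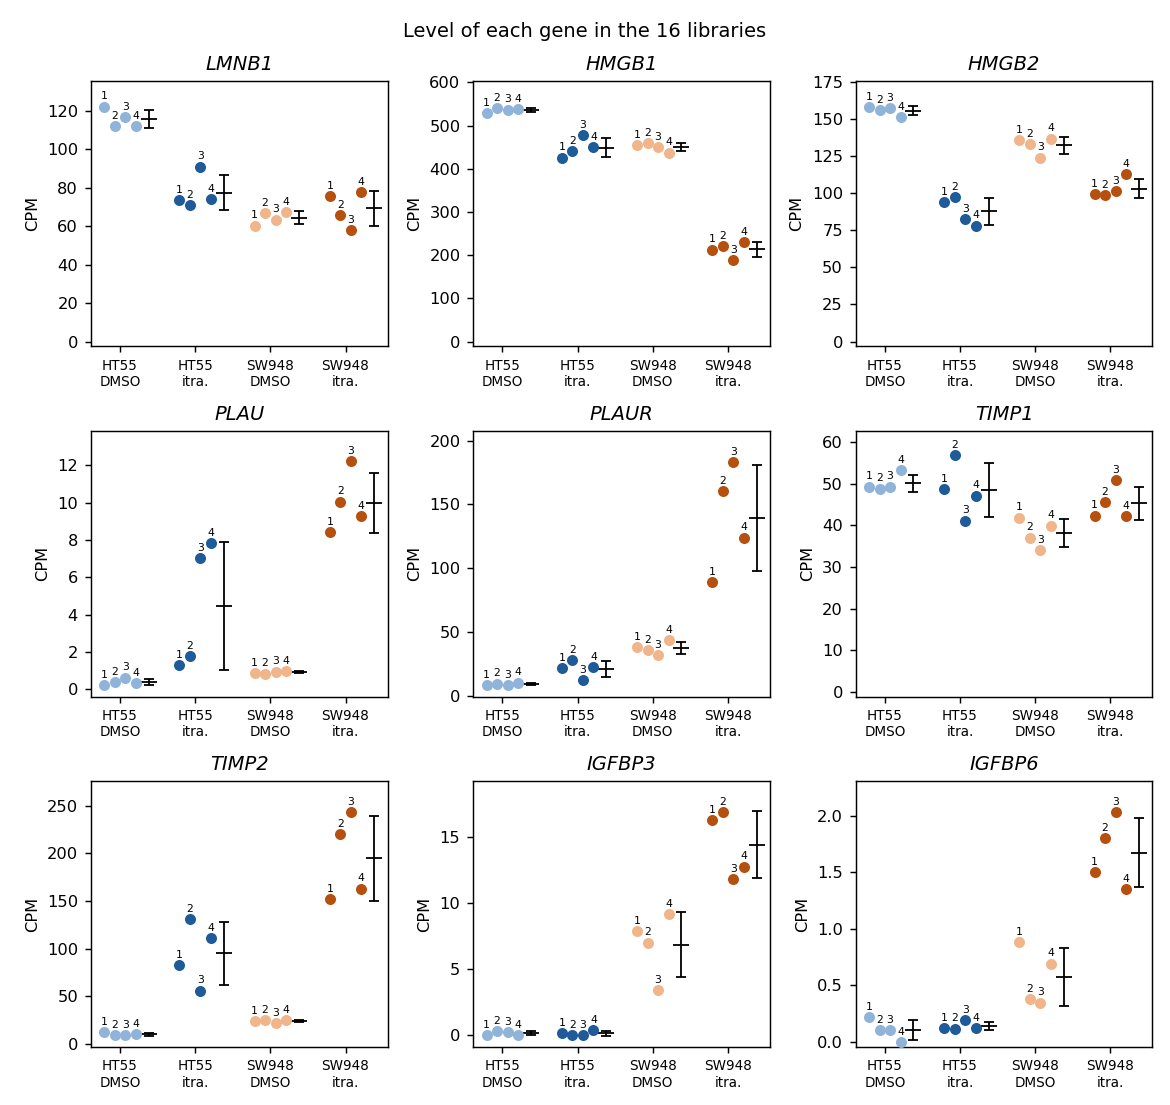
Each panel plots 1 gene in CPM on a linear axis, with points for the 4 numbered libraries of each group and a black bar for the mean ± SD. HMGB1 falls to 0.463 times its control level in SW948 while the LMNB1 groups overlap there, PLAUR and TIMP2 rise in both lines, and IGFBP3 and IGFBP6 lie near 0 in HT55.

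LMNB1 (ENSG00000113368, protein coding, GRCh37 chromosome 5, 126112315 to 126172712, plus strand) fell in HT55, and in SW948 its change did not pass the test. The HT55 DMSO libraries held 122.2, 112.1, 116.8 and 112.2 CPM and the itraconazole libraries 73.6, 70.9, 91.0 and 74.0 CPM. All treated HT55 libraries lay under all controls, and replicate 3 was the nearest to them. The log2 ratio was -0.58 ± 0.085 (SE, edgeR adjusted p = 0.000282). In SW948 the DMSO libraries held 60.3, 66.7, 63.4 and 67.4 CPM and the treated libraries 75.6, 65.9, 58.1 and 77.7 CPM. The SW948 groups overlapped, with a log2 ratio of 0.074 ± 0.087 (SE, 95% interval -0.11 to 0.26, edgeR adjusted p = 0.444). On plain totals the SW948 value turned to -0.25 and passed (adjusted p = 0.0428), so no direction can be given for LMNB1 in SW948.

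HMGB1 (ENSG00000189403, protein coding, GRCh37 chromosome 13, 31030841 to 31191734, minus strand) fell in both lines, and by more in SW948. In HT55 it went from 529.0, 540.5, 536.7 and 537.3 CPM to 425.7, 440.3, 478.8 and 449.5 CPM. In SW948 it went from 454.2, 459.0, 449.9 and 437.3 CPM to 212.8, 220.5, 189.2 and 230.8 CPM. No treated library reached a control library in either line. The log2 ratios of treated to control were -0.26 ± 0.060 in HT55 and -1.11 ± 0.068 in SW948 (both with SE, edgeR adjusted p = 0.00409 and 3.41e-09), so treated SW948 held 0.463 times the control level. HMGB1 has many processed copies in the genome. Of 42 copies listed by symbol, 20 had any count, and together they held 6 to 33 counts per library against 1488 or more for HMGB1 itself. Reads with more than 1 alignment were set apart by the counting, and these were 22.0% to 27.9% of all reads in a library, so how many came from HMGB1 was not tested.

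HMGB2 (ENSG00000164104, protein coding, GRCh37 chromosome 4, 174252527 to 174255583, minus strand) also fell in both lines, and by more in HT55. It went from 157.6, 155.6, 157.2 and 151.1 CPM to 93.9, 97.1, 82.4 and 78.1 CPM in HT55. In SW948 it went from 135.5, 132.9, 123.8 and 136.6 CPM to 99.4, 98.6, 101.1 and 112.5 CPM. The groups were apart in both lines. The log2 ratios of treated to control were -0.83 ± 0.075 in HT55 and -0.40 ± 0.065 in SW948 (both with SE, edgeR adjusted p = 1.93e-05 and 6.84e-05). HMGB1 and HMGB2 kept a negative sign under all the alternatives tried in both lines, plain totals included.

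The 3 nuclear genes thus had different orders of change in the lines, and the difference was tested directly. Over all 13249 genes tested for an interaction of line and treatment, 53.9% passed, 24.8% with a higher value in SW948 and 29.1% with a lower one. Of the 9 members 3 passed, and these were the 3 nuclear genes. The SW948 response minus the HT55 response was 0.69 ± 0.13 (SE) for LMNB1, -0.82 ± 0.091 (SE) for HMGB1 and 0.46 ± 0.10 (SE) for HMGB2 on the log2 scale (edgeR adjusted p = 0.000168, 5.62e-07 and 0.000741). On plain totals the values were 0.49, -1.01 and 0.27, all still past the threshold, while the split over all genes went from 3292 higher and 3849 lower to 2295 and 4929.

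Ratios of 2 genes within a library show the same contrast and contain no scaling factor. Per kilobase, HMGB2 stood to HMGB1 at 0.929 ± 0.023 in HT55 DMSO and 0.942 ± 0.050 in SW948 DMSO (SD, n = 4 each). With itraconazole the ratio was 0.631 ± 0.088 in HT55 and 1.55 ± 0.12 in SW948 (SD, n = 4 each). The 2 lines thus started at overlapping ratios and moved to opposite sides, with treated ranges of 0.552 to 0.707 and 1.43 to 1.71. LMNB1 to HMGB1 went from 0.458 ± 0.023 to 0.365 ± 0.027 in HT55 and from 0.304 ± 0.019 to 0.687 ± 0.056 in SW948 (SD, n = 4 each). HMGB2 to LMNB1 moved in the same direction in both, from 2.03 ± 0.061 to 1.74 ± 0.32 in HT55, where the ranges overlapped, and from 3.11 ± 0.20 to 2.27 ± 0.27 in SW948 (SD, n = 4 each). These ratios come from the contrast already tested and are given without a test.

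**Figure D2:**
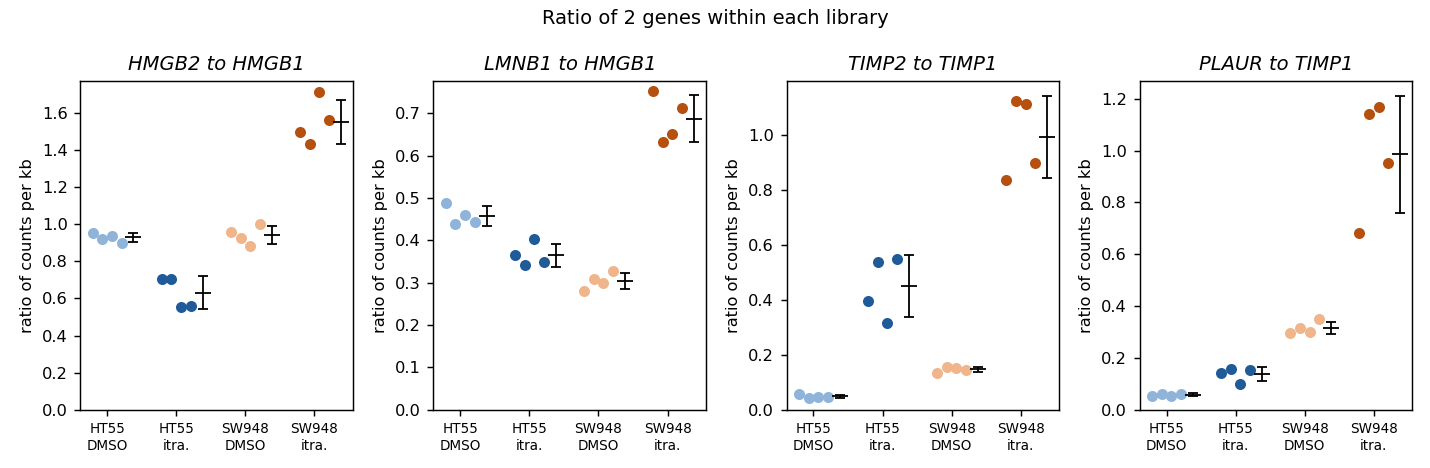
Ratios of counts per kilobase of merged exons in each library, with 4 points per group and black bars for the mean ± SD on linear axes from 0. HMGB2 to HMGB1 starts near 0.93 in both lines and moves down in HT55 and up in SW948, while TIMP2 to TIMP1 and PLAUR to TIMP1 move up in both.

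Other genes of the nuclear lamina and envelope changed in both directions. Apart from LMNB1, 17 were listed. In HT55 15 were tested, with 5 higher and 4 lower, and in SW948 16 were tested, with 10 higher and 6 lower. The shares over all genes tested were 27.5% higher and 26.5% lower in HT55, and 38.9% and 41.3% in SW948. Their median log2 ratio was 0.002 in HT55 and 0.20 in SW948, against -0.015 and -0.025 over all genes tested. On plain totals the calls were 3 higher and 6 lower in HT55 and 5 higher and 7 lower in SW948. The list's median was then -0.16 in HT55 and -0.13 in SW948, against -0.18 and -0.35 over all genes tested. The balance of calls thus turned with a scaling that moved all genes downwards. The largest rise in SW948 was LMNA, the gene of A-type lamins, at 255.3 ± 16.9 CPM with DMSO and 512.1 ± 61.6 CPM with itraconazole (SD, n = 4 each). The largest fall in HT55 was TMPO, which encodes lamina-associated polypeptide 2, at 349.9 ± 6.21 and 250.1 ± 4.42 CPM (SD, n = 4 each). The largest rise in HT55 was SUN2, a protein that links the nucleus to the cytoskeleton, with a log2 ratio of 0.52 ± 0.11 (SE, edgeR adjusted p = 0.00215). In SW948 the largest fall was SYNE1, another such linker, with a log2 ratio of -2.11 ± 0.34 from a control level of 2.15 CPM (SE, edgeR adjusted p = 5.99e-05). SYNE1 had at most 6 counts in a treated SW948 library and passed the filter only through the DMSO libraries. Its call thus supports nothing beyond the values.

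More of the other high-mobility-group genes fell than rose. Apart from HMGB1 and HMGB2, 10 were listed and 8 tested in each line, with 1 higher and 5 lower in HT55 and 3 higher and 5 lower in SW948, where 26.5% and 41.3% of all genes tested were lower. Their median log2 ratio was -0.34 in HT55 and -0.44 in SW948. On plain totals 1 was higher and 6 lower in HT55, and 1 higher and 5 lower in SW948. HMGN2, which binds nucleosomes, had the largest fall in both, with a log2 ratio of -1.52 ± 0.097 in HT55 and -1.19 ± 0.10 in SW948 (both with SE, edgeR adjusted p = 3.35e-06 and 1.34e-07). HMGA1, an architectural protein of AT-rich DNA, had the largest rise in both, from 160.5 ± 2.80 to 212.3 ± 20.6 CPM in HT55, and SW948 went from 340.8 ± 15.5 to 840.2 ± 169.5 CPM (SD, n = 4 each).

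PLAU (ENSG00000122861, protein coding, GRCh37 chromosome 10, 75668935 to 75677254, plus strand) was near its lower limit of detection in control cells and rose in both lines. In HT55 the DMSO libraries had 2, 4, 6 and 3 counts and the itraconazole libraries 11, 15, 74 and 63. The treated HT55 libraries fell into a lower pair, replicates 1 and 2 at 1.31 and 1.77 CPM, and a higher pair, replicates 3 and 4 at 7.03 and 7.82 CPM. Replicate 3, which for LMNB1, HMGB1, PLAUR and TIMP2 was the treated library nearest to the controls, was among the highest for PLAU. The log2 ratio in HT55 was 3.43 ± 0.69 (SE, edgeR adjusted p = 0.002). On plain totals the summed counts of 15 and 163 give a ratio of 10.1 (exact 95% interval 5.92 to 18.4, counting error only). In SW948 the counts were 11, 9, 11 and 13 with DMSO and 84, 78, 96 and 82 with itraconazole. These treated libraries were close together, at 8.40 to 12.2 CPM, with a log2 ratio of 3.37 ± 0.19 (SE, edgeR adjusted p = 2.05e-09). Without any 1 library the HT55 value stayed between 3.06 and 3.73 and past the threshold, though no DMSO library reached the filter limit. C10orf55, an antisense transcript, shares 915 exon bases with PLAU and had at most 1 count in a library. Whether the counting used strand is not given in the sources used here, and the number of PLAU reads lost to shared bases was not tested.

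PLAUR (ENSG00000011422, protein coding, GRCh37 chromosome 19, 44150247 to 44174699, minus strand) was better covered and rose in both lines. HT55 libraries went from 8.11, 9.36, 8.27 and 10.2 CPM to 21.4, 27.7, 12.5 and 22.5 CPM. SW948 libraries went from 38.2, 35.8, 31.6 and 43.3 CPM to 88.7, 160.6, 183.2 and 123.8 CPM. No treated library overlapped the controls, replicate 3 was the lowest of treated HT55, and treated SW948 libraries ranged from 88.7 to 183.2 CPM. The log2 ratios of treated to control were 1.21 ± 0.21 (SE) and 1.86 ± 0.18 (SE) (edgeR adjusted p = 0.000957 and 3.61e-07). The SW948 rise exceeded the HT55 rise by 0.68 ± 0.31 (SE) on the log2 scale, which missed the threshold in edgeR (adjusted p = 0.0719, 95% interval 0.031 to 1.34). The difference passed with the DESeq2 Wald test (adjusted p = 0.0445), without a filter on low counts (adjusted p = 0.000132), without treated HT55 replicate 2 (edgeR adjusted p = 0.0243) and without treated SW948 replicate 1 (edgeR adjusted p = 0.0116). These were 2 of 9 alternatives and 2 of 16 fits that left out 1 library. On plain totals the difference was 0.48 and did not pass (edgeR adjusted p = 0.147).

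The bases before the starts of HMGB1, PLAU and PLAUR are shown because these genes had a match among the 7 short motifs searched. Each is the 250 bases upstream of the RefSeq gene start (GRCh38.p14), written 5′ to 3′ on the gene's strand with matches in capitals, and no match overlapped one of another motif.
HMGB1, chr13:30465937-30466186, minus strand: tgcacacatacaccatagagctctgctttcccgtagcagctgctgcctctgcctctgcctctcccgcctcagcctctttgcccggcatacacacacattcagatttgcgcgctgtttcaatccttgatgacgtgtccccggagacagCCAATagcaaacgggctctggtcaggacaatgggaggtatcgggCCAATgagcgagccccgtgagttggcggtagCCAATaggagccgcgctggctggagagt
PLAU, chr10:73910360-73910609, plus strand: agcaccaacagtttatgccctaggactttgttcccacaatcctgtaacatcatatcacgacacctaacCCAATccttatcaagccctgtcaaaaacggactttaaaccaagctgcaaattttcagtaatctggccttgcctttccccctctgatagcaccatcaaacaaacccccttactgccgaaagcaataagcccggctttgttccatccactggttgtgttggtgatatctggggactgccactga
PLAUR, chr19:43670170-43670419, minus strand: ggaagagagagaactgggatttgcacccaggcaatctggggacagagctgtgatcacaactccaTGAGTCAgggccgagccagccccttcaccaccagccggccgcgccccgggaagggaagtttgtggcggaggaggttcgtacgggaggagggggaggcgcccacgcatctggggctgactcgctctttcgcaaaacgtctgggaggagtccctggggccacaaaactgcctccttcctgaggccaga

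The capitals in HMGB1 and PLAU mark the CCAAT box (CCAAT, or ATTGG on the other strand), which occurred in 33.0% of the 27305 promoters in the table, and HMGB1 held 3 of them. The capitals in PLAUR mark the AP-1 motif (TGANTCA on either strand), which occurred in 6.60% of promoters. The other motifs were 2 forms of the E2F site (TTTCCCGC and TTTGGCGC), the cell cycle homology region (TTTGAA), the E box (CACGTG) and the TATA box (TATAAA), on both strands, and they occurred in 1.42%, 0.553%, 13.6%, 6.49% and 11.13% of promoters. None of the other motifs had a match in the 7 members with a sequence. HMGB2 and TIMP2 had no entry in the table. A match of letters is not a measured binding site.

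The other genes of plasminogen activation had a balance of calls that depended on the scaling. Apart from PLAU and PLAUR, 16 were listed and 9 tested in each line, with 5 higher and 2 lower in both HT55 and SW948, where 27.5% and 38.9% of all genes tested were higher. The median log2 ratio was 0.23 in HT55 and 0.30 in SW948. On plain totals the calls were 2 higher and 3 lower in HT55 and 4 higher and 4 lower in SW948. The list's median was then 0.057 in HT55 and -0.046 in SW948, against -0.18 and -0.35 over all genes tested. The inhibitor SERPINE2 had the largest rise in HT55, from 92.1 ± 9.29 to 232.0 ± 40.0 CPM (SD, n = 4 each). The largest in SW948 was SERPINB5, a serpin known as maspin, from 11.4 ± 0.919 to 64.4 ± 14.3 CPM (SD, n = 4 each). PLGRKT, a plasminogen receptor, had the largest fall in both lines, with a log2 ratio of -0.88 ± 0.21 in HT55 and -0.98 ± 0.18 in SW948 (both with SE, edgeR adjusted p = 0.00557 and 0.000207).

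TIMP1 (ENSG00000102265, protein coding, GRCh37 chromosome X, 47441807 to 47446188, plus strand) had small differences that turned on the scaling. In HT55 the DMSO libraries held 49.3, 48.8, 49.3 and 53.2 CPM and the treated libraries 48.7, 56.9, 41.2 and 47.2 CPM. The HT55 groups overlapped, with a log2 ratio of -0.056 ± 0.095 (SE, 95% interval -0.27 to 0.15, edgeR adjusted p = 0.639), and on plain totals it was -0.23 and passed (adjusted p = 0.0308). In SW948 the DMSO libraries held 41.8, 37.1, 34.0 and 40.0 CPM and the treated libraries 42.3, 45.6, 50.9 and 42.2 CPM. The SW948 groups were just apart, with a log2 ratio of 0.21 ± 0.090 (SE, edgeR adjusted p = 0.0463). The call held when 3 of the 8 libraries were left out 1 at a time and was lost with the other 5, and on plain totals the value was -0.12 and did not pass (adjusted p = 0.186). The call was lost without SW948 DMSO replicate 2 (adjusted p = 0.103), 3 (adjusted p = 0.152) or 4 (adjusted p = 0.0605), and without treated replicate 2 (adjusted p = 0.0729) or 3 (adjusted p = 0.125). The lines differed by 0.29 on the log2 scale (95% interval 0.014 to 0.57, edgeR adjusted p = 0.0708), which passed without treated HT55 replicate 2 (adjusted p = 0.0143). That was 1 of 16 fits that left out 1 library. On plain totals the difference was 0.10 and did not pass (edgeR adjusted p = 0.475).

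TIMP2 (ENSG00000035862, protein coding, GRCh37 chromosome 17, 76849059 to 76921469, minus strand) rose in both lines, with 88 counts or more in every library. In HT55 it went from 12.4, 9.05, 9.44 and 10.7 CPM to 82.6, 131.0, 56.0 and 111.4 CPM. In SW948 it went from 24.3, 24.9, 22.3 and 24.8 CPM to 151.6, 220.1, 243.3 and 162.9 CPM. Every treated library was several times above every control of its line, and replicate 3 was the lowest treated library in HT55 and the highest in SW948. The log2 ratios of treated to control were 3.19 ± 0.25 in HT55 and 2.98 ± 0.14 in SW948 (both with SE, edgeR adjusted p = 8.80e-06 and 3.47e-10), which are folds of 9.11 and 7.89. The responses of the lines differed by -0.18 ± 0.30 (SE, 95% interval -0.80 to 0.44) on the log2 scale (edgeR adjusted p = 0.635). The corresponding difference for PLAU was -0.027 ± 0.45 (SE, 95% interval -0.96 to 0.91, edgeR adjusted p = 0.969), an interval wide enough to hold a nearly 2-fold difference in either direction.

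Within libraries, TIMP2 gained on TIMP1. TIMP2 stood to TIMP1, per kilobase, at 0.0483 ± 0.0071 in HT55 DMSO and 0.450 ± 0.11 in HT55 itraconazole (SD, n = 4 each). In SW948 the ratio went from 0.147 ± 0.0094 to 0.993 ± 0.15 (SD, n = 4 each). PLAUR to TIMP1 went from 0.0580 ± 0.0048 to 0.138 ± 0.028 in HT55 and from 0.316 ± 0.025 to 0.985 ± 0.23 in SW948 (SD, n = 4 each). Against PLAUR, TIMP2 still rose, from 0.841 ± 0.18 to 3.24 ± 0.34 in HT55 and from 0.468 ± 0.044 to 1.03 ± 0.13 in SW948 (SD, n = 4 each). None of these 3 ratios had overlapping control and treated libraries in either line. CEP295NL shares 224 exon bases with TIMP2 on the same strand and had at most 3 counts in a library.

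**Figure D3:**
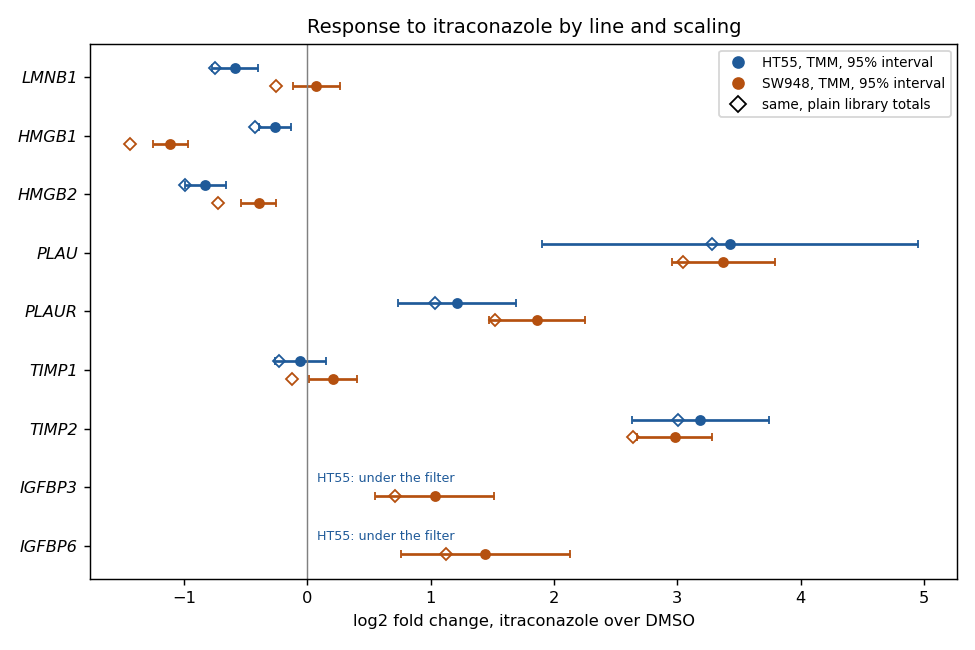
Log2 fold change of itraconazole over DMSO for each gene, as filled circles with 95% intervals after TMM scaling and as open diamonds on plain library totals. PLAU, PLAUR and TIMP2 lie right of 0 and HMGB1 and HMGB2 left of 0 in both lines under both scalings, whereas LMNB1 and TIMP1 in SW948 lie right of 0 with TMM and left of it on plain totals.

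Of 29 listed matrix metalloproteinases, inhibitors and related sheddases apart from TIMP1 and TIMP2, 27 were found by symbol. In HT55 9 were tested, with 4 higher and 1 lower, and in SW948 11 were tested, with 6 higher and 5 lower. The shares over all genes tested were 27.5% higher and 26.5% lower in HT55, and 38.9% and 41.3% in SW948. The median log2 ratio was 0.14 in HT55 and 0.15 in SW948, against -0.015 and -0.025 over all genes tested. On plain totals it was -0.020 and -0.18, against -0.18 and -0.35 over all genes tested. The calls were then 4 higher and 2 lower in HT55 and 3 higher and 5 lower in SW948. The largest rise in HT55 was MMP15, a membrane-bound metalloproteinase, from 66.1 ± 4.40 to 146.4 ± 28.9 CPM (SD, n = 4 each). MMP7 (matrilysin) had the largest rise in SW948, from 0.312 ± 0.13 to 2.96 ± 1.36 CPM, a low level reached through the treated libraries (SD, n = 4 each). MMP11 (stromelysin 3) had the largest fall in HT55, with a log2 ratio of -0.93 ± 0.15 (SE, edgeR adjusted p = 0.000438). The inhibitor TIMP4 had the largest fall in SW948, from 5.01 ± 0.65 to 0.408 ± 0.16 CPM (SD, n = 4 each). Its log2 ratio was -3.62 ± 0.26 (SE, edgeR adjusted p = 1.97e-08). TIMP4 had at most 5 counts in a treated SW948 library and passed the filter only through the DMSO libraries. Its call thus supports nothing beyond the values.

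IGFBP3 (ENSG00000146674, protein coding, GRCh37 chromosome 7, 45951844 to 45961473, minus strand) had few counts in HT55 and rose in SW948. HT55 libraries had 0, 3, 2 and 0 counts with DMSO and 1, 0, 0 and 3 with itraconazole, too few for the test. On plain totals the summed HT55 counts of 5 and 4 give a ratio of treated to control of 0.740. Its exact 95% interval was 0.147 to 3.44 (counting error only), so a change of several times was not detectable at this depth. In SW948 the libraries went from 7.86, 6.99, 3.38 and 9.16 CPM to 16.3, 16.9, 11.8 and 12.8 CPM. Replicate 3 was the lowest library in both SW948 groups, and the groups did not overlap. The log2 ratio was 1.03 ± 0.23 (SE, edgeR adjusted p = 0.000746).

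IGFBP6 (ENSG00000167779, protein coding, GRCh37 chromosome 12, 53491220 to 53496129, plus strand) was the least expressed member in SW948 with itraconazole. HT55 libraries had 0 to 2 counts in both groups, too few for the test. SW948 libraries had 11, 4, 4 and 9 counts with DMSO and 15, 14, 16 and 12 with itraconazole. The groups were apart, and the log2 ratio was 1.44 ± 0.32 (SE, edgeR adjusted p = 0.000836), but at a mean of 1.67 ± 0.30 CPM after treatment (SD, n = 4). The interaction could not separate the lines for either gene, at 1.31 ± 1.35 (SE) for IGFBP3 and 1.14 ± 0.92 (SE) for IGFBP6 on the log2 scale (edgeR adjusted p = 0.431 and 0.367). Leaving out 1 library moved the IGFBP3 value between 0.53, without HT55 DMSO replicate 2, and 2.65, without treated HT55 replicate 4, and the IGFBP6 value between 0.63 and 1.47, and none passed.

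Of 18 genes of the insulin-like growth factor axis apart from IGFBP3 and IGFBP6, 9 were tested in HT55 with 5 higher and 3 lower, and 8 in SW948 with 5 higher and 2 lower. Over all genes tested, 27.5% were higher and 26.5% lower in HT55, and 38.9% and 41.3% in SW948. The median log2 ratio was 0.42 in HT55 and 0.45 in SW948. On plain totals the calls were 4 higher and 3 lower in both lines. IRS2, an adaptor of the insulin and insulin-like growth factor receptors, had the largest rise in HT55, with a log2 ratio of 0.88 ± 0.076 (SE, edgeR adjusted p = 1.38e-05), and in SW948, at 0.88 ± 0.097 (SE, edgeR adjusted p = 1.35e-06). The largest fall in HT55 was the ligand IGF2, from 24.4 ± 3.79 to 8.02 ± 1.66 CPM (SD, n = 4 each), a value that is uncertain because IGF2 shares exons with the readthrough gene INS-IGF2. The largest fall in SW948 was IRS1, a second adaptor, from 166.4 ± 9.72 to 100.2 ± 2.62 CPM (SD, n = 4 each). Among other IGF-binding proteins, IGFBP4 had a log2 ratio of 0.83 in HT55 and -0.35 in SW948, and IGFBP2 one of -0.53 and 0.66. These are 4 calls in edgeR (adjusted p = 7.59e-05, 0.0044, 0.0351 and 3.24e-05), and both genes were chosen after their values were seen.

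**Figure D4:**
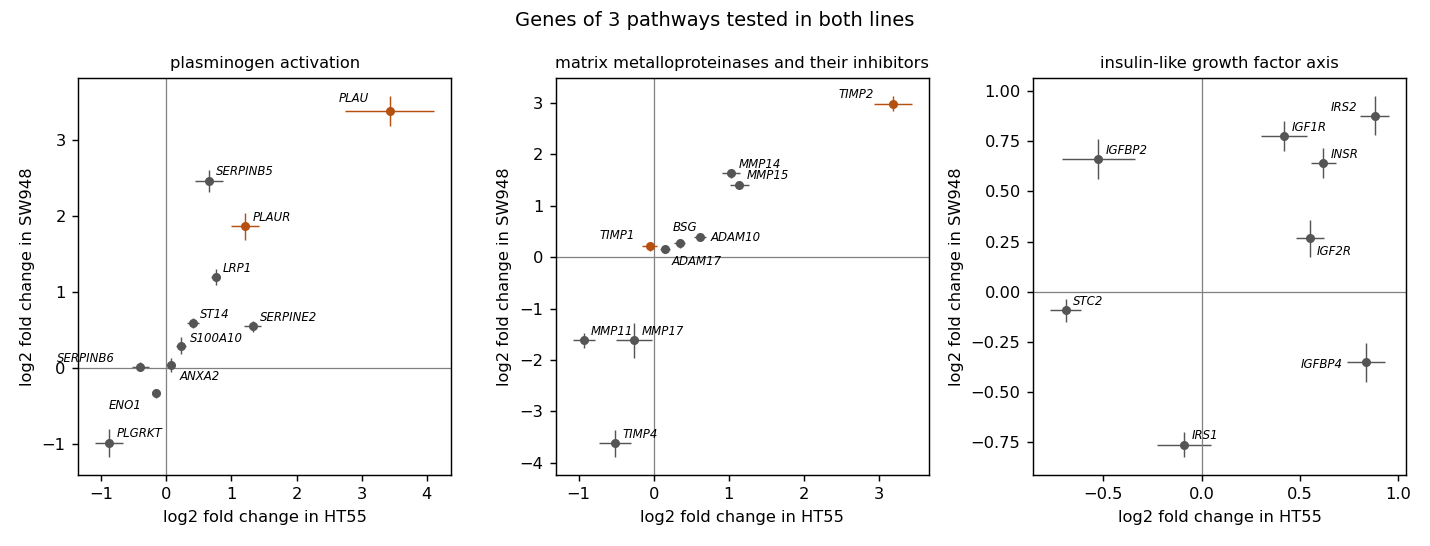
Log2 fold change in SW948 against that in HT55 for the genes of 3 fixed lists tested in both lines, with bars for 1 SE and orange points for PLAU, PLAUR, TIMP1 and TIMP2. PLAU and TIMP2 lie at the upper right, near 3 on both axes, and IGFBP2 and IGFBP4 lie on opposite sides of 0 in the 2 lines.

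A list of 14 further proteases and inhibitors of the senescent secretome was tested on 8 genes in HT55, all 8 higher, and on 7 in SW948, with 3 higher and 1 lower. Over all genes tested, 27.5% were higher and 26.5% lower in HT55, and 38.9% and 41.3% in SW948. The list's median log2 ratio was 0.82 in HT55 and 0.23 in SW948, against -0.015 and -0.025 over all genes tested. On plain totals 7 were higher in HT55, while SW948 had 0 higher and 3 lower. The SW948 median was then -0.11, against -0.35 over all genes tested. The largest rise in HT55 was SERPINA1, the antitrypsin gene, from 22.9 ± 3.10 to 255.2 ± 192.2 CPM, with a spread between treated libraries nearly as large as the mean (SD, n = 4 each). CTSB, the lysosomal protease cathepsin B, had the largest rise in SW948, from 480.2 ± 29.2 to 634.4 ± 26.1 CPM, a call lost on plain totals, and FURIN, a proprotein convertase, the largest fall, from 111.8 ± 5.22 to 80.9 ± 6.68 CPM (SD, n = 4 each). Of the 10 colon epithelium markers 6 changed in HT55, 5 of them upwards, and all 10 in SW948, 6 of them upwards. Of all genes tested 54.0% changed in HT55 and 80.2% in SW948. On plain totals 4 of these markers were higher and 2 lower in HT55, and 5 were higher and 4 lower in SW948. The keratin gene KRT20 had the largest rise in HT55 (log2 ratio 1.13), and KRT19, another keratin, the largest fall there (-0.19) and the largest rise in SW948 (1.34). CDX2, an intestinal transcription factor, had the largest fall in SW948 (-0.88). Of the fibroblast genes 1 was tested in each line and rose, PDGFRB in HT55, at 1.04 ± 0.31 and 2.49 ± 0.31 CPM, and COL1A1 in SW948, at 3.16 ± 0.81 and 10.1 ± 1.03 CPM (SD, n = 4 each). Of the endothelial and leukocyte genes, CD68 and LYZ were tested in both lines. LYZ rose in HT55 from 0.852 ± 0.35 to 2.23 ± 0.72 CPM but fell in SW948 from 317.9 ± 25.9 to 109.5 ± 11.8 CPM, and CD68, a lysosomal protein, did not pass in HT55 (edgeR adjusted p = 0.0868) and rose in SW948 from 20.5 ± 3.65 to 110.3 ± 1.48 CPM (SD, n = 4 each). In HT55 DMSO, PDGFRB had 38 and LYZ 31 summed counts, so both passed the filter only with the help of their treated libraries. Their calls in HT55 thus support nothing beyond the values. The fibroblast sum moved with treatment, from between 1.41 and 2.13 CPM to between 3.33 and 3.97 CPM in HT55 and from between 2.54 and 4.68 CPM to between 9.94 and 12.1 CPM in SW948, and its part in the members' changes was not tested.

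The second comparison set the untreated lines side by side. Of the 9 members 7 were tested between SW948 and HT55 controls and all 7 differed, 3 higher in SW948 and 4 lower. Of all 12820 genes tested, 84.2% differed, 42.6% higher and 41.6% lower, and 78.8% had groups that did not overlap, as all 7 members did. IGFBP3 differed most, with 5 summed counts in HT55 and 330 in SW948, a ratio of 58.6 on plain totals (exact 95% interval 24.9 to 181.6, counting error only). It passed the filter through SW948 alone, so its call and its lack of overlap, both counted above, support nothing beyond the values. Its fitted log2 difference of 5.56 (edgeR adjusted p = 8.07e-11), no bound with HT55 libraries at 0, was 6.34 without HT55 DMSO replicate 2 and between 5.16 and 5.84 without any other. PLAUR was higher in SW948 by 2.06 ± 0.10 (SE) and TIMP2 by 1.22 ± 0.094 (SE) on the log2 scale (edgeR adjusted p = 2.68e-15 and 1.32e-11). LMNB1 was lower in SW948, at -0.84 ± 0.049 (SE), and so were TIMP1 at -0.38 ± 0.064 (SE), HMGB1 at -0.25 ± 0.038 (SE) and HMGB2 at -0.23 ± 0.043 (SE) (edgeR adjusted p = 4.08e-14, 6.64e-06, 1.92e-06 and 3.25e-05). On plain totals the HMGB1 and HMGB2 differences were -0.055 and -0.036 and did not pass (adjusted p = 0.171 and 0.43). PLAU and IGFBP6 were under the filter, with 15 against 44 and 4 against 28 summed counts in HT55 and SW948. On plain totals these are ratios of 2.60 (exact 95% interval 1.42 to 5.04) and 6.21 (exact 95% interval 2.17 to 24.4), with counting error only.

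The order of levels per kilobase changed with treatment. In HT55 DMSO it ran HMGB1, HMGB2, TIMP1, LMNB1, PLAUR, TIMP2, PLAU, IGFBP6 and IGFBP3, from 69.6 down to 0.0285 CPM per kilobase. PLAUR and TIMP2 overlapped there, and among the last 3 genes each overlapped the next. In HT55 itraconazole HMGB2 and TIMP1 overlapped, and TIMP2 had passed PLAUR and overlapped LMNB1, at 15.3 ± 5.29 against 21.3 ± 2.53 CPM per kilobase (SD, n = 4 each). In SW948 DMSO the first 6 places were the same as in HT55 DMSO, with HMGB1 and HMGB2 overlapping, and IGFBP3, IGFBP6 and PLAU followed. In SW948 itraconazole HMGB2 led at 42.9 ± 2.69 CPM per kilobase, and TIMP2, TIMP1, PLAUR and HMGB1 followed within 27.7 to 31.3 CPM per kilobase, each overlapping the next, as PLAU did IGFBP3 (SD, n = 4).

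The genes with the most similar pattern to each member were found by Pearson r of log2 CPM over the 16 libraries, among 9226 genes whose log2 CPM averaged 3 or more. The points share 2 lines and 2 treatments, so high values are common and no p was computed. For PLAU the 3 genes were ST14 (matriptase), TMEM54 and MMP14, a membrane-bound metalloproteinase, with r of 0.978, 0.963 and 0.962. PLAUR was most like STK24, KLF6 and BRD2 (r of 0.996, 0.995 and 0.993), and TIMP2 most like PCYOX1, NDRG1 and EPHX1 (r of 0.991, 0.991 and 0.989). HMGB1 was most like SELENOF, MCM10 and NCBP1 (r of 0.993, 0.993 and 0.992). LMNB1 was most like UBE2T, PRDX3 and FCF1 (r of 0.956, 0.952 and 0.947), and HMGB2 most like CDCA7L, PECR and MRPL21 (r of 0.977, 0.933 and 0.926). TIMP1 was most like RPS4X, EEF1A1P5 and EFNB1 (r of 0.925, 0.922 and 0.921). IGFBP3 was most like DMTF1, SBF2 and LIF (r of 0.984, 0.983 and 0.980), and IGFBP6 most like FAM8A1, CLASRP and IRF5 (r of 0.970, 0.970 and 0.968).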

How the data were processed

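RNA from 16 samples was made into TruSeq libraries and sequenced as single-end reads. Per the labels, the authors aligned reads to hg19. TopHat, HTSeq and DESeq are named in the submitters' processing notes, with no versions, and the annotation release is not given in the sources used here. The authors deposited raw read counts per Ensembl gene, 1 file per library, with 5 totals of reads outside genes that were left out here. Those totals included 3.79% to 4.94% of reads in no gene and 1.23% to 1.48% ambiguous reads. A symbol was found for 47098 identifiers, holding 97.8% of gene counts, from GENCODE on GRCh37 and a table of gene names.

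Counts were normalised by TMM, filtered with filterByExpr and tested by quasi-likelihood F-tests (edgeR 4.0.16, R 4.3.3), each line on its 8 libraries and the interaction on all 16. P-values were adjusted over all genes by the Benjamini-Hochberg method, and genes with an adjusted p under 0.05 were called. Each SE is the log2 fold change divided by the root of F, and a log2 ratio in the text is that fold change of treated over DMSO. Alternatives were DESeq2 size factors, plain totals, other count filters and thresholds, removal of the most abundant and mitochondrial genes, the replicate block, 1 fit of all libraries and leaving out each library. DESeq2 1.42.0 served as an alternative. The scripts were tested on simulated counts. Replicate pairs differed by 1.43 to 40.4 times sampling noise (chi-square per degree of freedom), so none was counted as 1 sample. The range was 1.43 to 2.34 in HT55 DMSO and 4.88 to 40.4 in treated HT55. It was 2.45 to 4.85 in SW948 DMSO and 3.76 to 21.5 in treated SW948. Each fit took 1 spread per gene for all its groups, although the treated libraries differed more among themselves. Same-numbered libraries had correlations of deviations from -0.025 to 0.116. Replicate 3 of HT55 (0.116) and replicates 3 (0.104) and 4 (0.059) of SW948 matched their own number best, and the others did not. The numbers were not taken as pairs, and the replicate block served as an alternative. Ratios of summed counts use plain library totals and not TMM. Counting intervals cover counting error only, since the reads had no molecular identifiers, and depth limits the precision of genes with few counts. The members and lists were chosen with earlier results of these data known. The text names all 9 members, the 3 genes most like each, and from each further list the called genes with the largest rise and fall in each line, apart from members. IGFBP2 and IGFBP4 were named after their values were seen, and marker genes at or near 0 are named as a check of cell type. Lists are counted without members.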

Additional observations from a re-analysis of the deposited data

Results flagged for a closer look

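Each of the 9 genes was examined in each of the 4 groups for a single library standing apart, measured as the distance to the closest other library divided by the whole range of the 4. Of these 36 sets 3 passed Dixon's 95% limit for 4 values, which chance passes in about 1 of 20. In treated HT55, replicate 3 stood above the others for LMNB1, at 91.0 CPM (0.845 of the range), and for IGFBP6, at 0.190 CPM (0.914 of the range), where it had 2 counts against 1 in each of the others. In HT55 DMSO, replicate 4 stood above the others for TIMP1, at 53.2 CPM (0.887 of the range). Without replicate 3 of treated HT55 the LMNB1 value in HT55 was -0.66 on the log2 scale.

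The response differed between the lines by the interaction test for 3 members, at 0.69 for LMNB1, -0.82 for HMGB1 and 0.46 for HMGB2 on the log2 scale, SW948 minus HT55.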

How the results depend on the processing

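With an absolute log2 fold change of at least 1 also required, the counts of genes called fell to 1169 in HT55, 4001 in SW948, 2760 for the interaction and 4153 between the untreated lines, and the counts of members called to 3, 6, 0 and 3. With at least 10 counts in every library, PLAU and IGFBP6 were not tested in SW948 and TIMP1 lost its call, which left 5 members. PLAU was not tested in HT55 either under that filter, which left 5 members there too. On plain totals SW948 LMNB1 turned to -0.25 and SW948 TIMP1 to -0.12 on the log2 scale. Replicate numbers were not taken as pairs. With the replicate block 6300 genes were called in HT55, 9973 in SW948, 7037 for the interaction and 10827 between the lines. The block ended the call of TIMP1 in SW948 (adjusted p = 0.0736) and turned the interaction of PLAU to 0.061, with no other member's call changed. Leaving out 1 library at a time gave 3 to 5 members called for the interaction, 5 of them without treated HT55 replicate 2. It moved HT55 TIMP1 between -0.14 and 0.031, the PLAU interaction between -0.34 and 0.33 and the TIMP2 interaction between -0.38 and 0.015, none of which passed. PLAUR, TIMP2, HMGB1 and HMGB2 kept their calls in both lines under each of these omissions. PLAU did too, but it passed the filter only with the help of its treated libraries, so its calls support nothing beyond the values. Genes with at most 13 counts in every library of a group, IGFBP3 and IGFBP6 in HT55, IGFBP6 in SW948 DMSO and PLAU in DMSO of both lines, are limited by depth, and small changes by the scaling. The cause of these shifts was not tested, except that the fold change threshold and the count filter remove genes by construction.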
